A study of Homo sapiens with 9 samples.

Results

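The 37 genes of the human mitochondrial genome were taken from a table of raw counts for 63187 genes by 1 rule, a gene symbol that starts with MT-. They are 13 protein genes, 2 rRNA genes and 22 tRNA genes on a circular molecule of 16569 bases. The counts came from BEAS-2B, an immortalized line derived from human bronchial epithelium and kept in medium with fetal bovine serum. Cells in the PG/VG group received, for 24 h at a dilution of 2% (v/v), the condensed aerosol of propylene glycol and vegetable glycerin, the carrier of e-cigarette liquids. Cells in the EC group received, at the same dilution and for the same time, the condensed aerosol of a Virginia tobacco flavored liquid that also held nicotine. Control cells were left untreated. Each group had 3 libraries, numbered 2, 3 and 4 for replicate and batch alike, and all 9 came from this one line.

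Both strands of the mitochondrial genome are transcribed, by a polymerase of their own, into long RNAs that cover many genes at once. Enzymes then cut out the tRNAs that lie between most of the other genes, and this frees the rRNAs and mRNAs, which are kept or destroyed at different rates. The strand called heavy is the template for 12 of the protein genes, both rRNA genes and 14 tRNA genes, and the light strand for MT-ND6 and 8 tRNA genes. All 13 proteins are subunits of the respiratory chain or of ATP synthase, the machinery of oxidative phosphorylation.

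The first bases of MT-ND2 and MT-ND6 are shown because these genes stand for the 2 strands in what follows, with the first codon in capitals. The sequences are from GRCh38, 5′ to 3′ in the sense of the gene. MT-ND2 lies on the plus strand of the reference at chrM:4470-5511 and MT-ND6 on the minus strand at chrM:14149-14673.
MT-ND2, chrM:4470-4499: ATTaatcccctggcccaacccgtcatctac
MT-ND6, chrM:14644-14673: ATGatgtatgctttgtttctgttgagtgtg
Read in the sense of the gene, MT-ND6 was 35.6% G and 7.05% C. The 12 protein genes of the other strand were between 6.28% and 16.2% G and between 29.5% and 36.0% C, so MT-ND6 had the opposite base bias.

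Where genes overlap, a read on the shared bases could not be given to either, because reads that overlap more than 1 gene were ignored in the counting. The stretches where MT-ATP8 runs into MT-ATP6 and MT-ND4L into MT-ND4 are shown for this reason, with the bases of both genes in capitals.
MT-ATP8 to MT-ATP6, chrM:8512-8587: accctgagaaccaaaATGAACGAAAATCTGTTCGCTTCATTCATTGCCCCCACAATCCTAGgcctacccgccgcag
MT-ND4L to MT-ND4, chrM:10745-10781: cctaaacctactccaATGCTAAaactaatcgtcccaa
The first overlap took 46 of the 207 bases of MT-ATP8, and the second 7 of the 297 bases of MT-ND4L. A read that ran from MT-ATP8 into MT-ATP6, or across the 1 base to MT-TK, was ignored as well. The part of this in the level and LFC (log2 fold change) values of MT-ATP8 was not tested. MT-ATP6 and MT-CO3 shared 1 base.

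The 3 tRNA genes with the most counts are shown because most of the tRNA counts fell on them, and all 3 are genes of the light strand. Here MT-TN, MT-TC and MT-TP, the tRNA genes for asparagine, cysteine and proline, are written in the sense of the gene, and the 31 bases between MT-TN and MT-TC on the plus strand, with the arms of their longest exact inverted repeat in capitals. The arms are 8 bases each and 12 bases apart, and this gap is known as the place where copying of the light strand begins.
MT-TN, chrM:5657-5729: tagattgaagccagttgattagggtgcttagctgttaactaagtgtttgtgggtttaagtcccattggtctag
MT-TC, chrM:5761-5826: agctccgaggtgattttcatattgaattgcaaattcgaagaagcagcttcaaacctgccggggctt
MT-TP, chrM:15956-16023: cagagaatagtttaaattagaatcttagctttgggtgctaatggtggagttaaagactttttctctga
MT-TN to MT-TC gap, chrM:5730-5760: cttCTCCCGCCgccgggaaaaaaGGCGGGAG

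The libraries held between 16168260 and 24917838 counts on genes. The epithelial keratin genes KRT7, KRT8 and KRT18 lay between 301 and 1174 CPM (counts scaled to the size of the library) in every library. KRT19 lay lower, between 16.8 and 23.1 CPM, and EPCAM and CDH1, defining genes of epithelium in tissue, stayed at or below 1.93 CPM. The epithelial list of 6 genes summed to 1776 to 2844 CPM in the control, 1721 to 2737 in PG/VG and 1460 to 2287 in EC. A list of 6 genes of secretory and ciliated airway cells summed to 0.248 to 0.450 CPM in the control. The sums were 0.573 to 0.858 CPM in PG/VG and 0.553 to 1.04 CPM in EC, with at most 12 counts a gene in any library. Of 4 blood cell genes, CD3E had 0 counts, PTPRC and HBB had at most 2 counts in a library, and CD14 lay between 3.07 and 8.89 CPM. Of 3 endothelial genes, CDH5 lay between 3.73 and 7.15 CPM, and PECAM1 and VWF stayed at or below 0.602 CPM. The summed blood cell list ranged over 3.26 to 5.27 CPM in the control, 5.10 to 7.54 in PG/VG and 3.12 to 8.98 in EC, and the endothelial list over 5.15 to 7.77, 4.51 to 6.43 and 4.24 to 5.70. The 3 libraries of batch 4 stood apart from those of batches 2 and 3. The chi-square per gene between replicates of a group was between 35.0 and 52.8 where batch 4 was 1 of the pair and between 3.66 and 12.2 where it was not. Batch was therefore a term of the main fit, and values from batches 2 and 3 alone are given where they moved a result most.

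Genes of the mitochondrial genome took between 1.32% and 1.92% of all gene counts. In batches 2, 3 and 4, the share was 1.49%, 1.68% and 1.92% in the control, 1.39%, 1.77% and 1.54% in PG/VG, and 1.32%, 1.45% and 1.83% in EC. The widest of the 9 Wilson intervals at 95% was 0.0127 percentage points across, and covers counting error only. EC lay below the control of its batch in all 3 batches, by a mean of −0.163 percentage points (SD 0.0646, n = 3 batches), although the ranges of both groups overlapped. PG/VG lay below its control in batches 2 and 4 and above it in batch 3, with a mean difference of −0.129 percentage points (SD 0.244, n = 3). EC minus PG/VG was −0.0336 percentage points (SD 0.309, n = 3), and was positive in batch 4. In each batch, the library with the most gene counts had the lowest mitochondrial share, which was EC in batches 2 and 3 and PG/VG in batch 4, and the control had the fewest counts. The part of depth in these shares was not tested. Fewer mitochondria per cell and less RNA per mitochondrion cannot be told apart in such libraries.

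**Figure D1:**
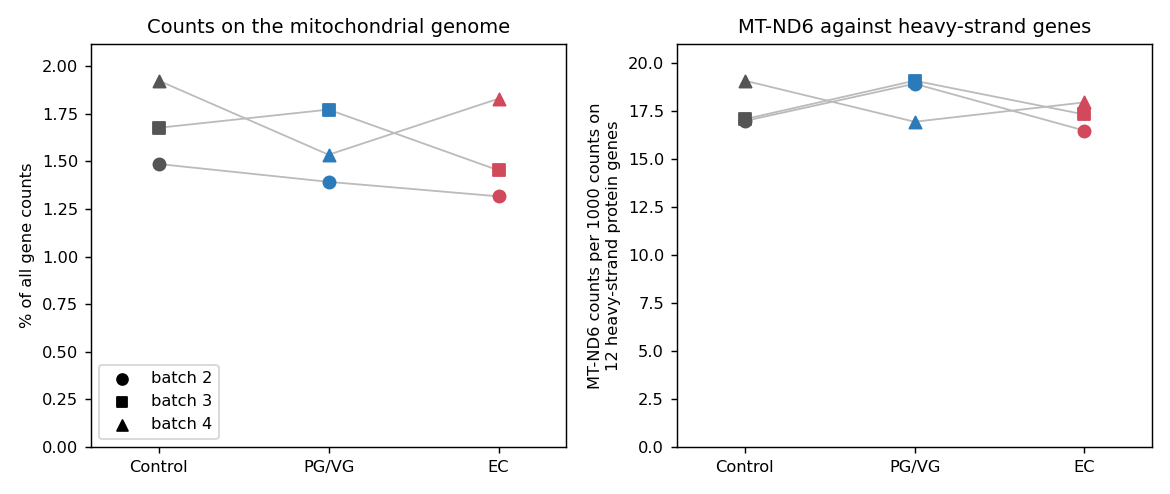
Left, the percent of all gene counts that fell on the 37 genes of the mitochondrial genome. Right, MT-ND6 counts per 1000 counts on the 12 heavy-strand protein genes. Each symbol is 1 library, its shape gives the batch, its colour the group and grey lines join libraries of a batch. EC is below the control of its batch in all 3 batches on the left, and the 9 ratios on the right lie between 16.5 and 19.1.

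Protein genes held between 90.2% and 93.2% of the mitochondrial counts of a library, rRNA genes between 6.38% and 9.31% and tRNA genes between 0.295% and 0.515%. The rRNA share followed a selection of RNA on poly-T beads, which takes up RNAs by their tails, so that these figures describe captured RNA and not the rRNA content of the cells. Of the 37 genes, 25 had at least 10 counts in at least 3 libraries and were tested. These were all 13 protein genes, both rRNA genes and 10 tRNA genes.

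Among the protein and rRNA genes, levels were compared per kilobase, in CPM divided by gene length. In the control, MT-CO1 was the highest (2610 ± 256 CPM per kilobase, SD, n = 3), followed by MT-CO3 (2472 ± 206), MT-CO2 (2469 ± 196), MT-ATP6 (2082 ± 265) and MT-ND4 (1775 ± 418). The ranges of neighbours in this order overlapped. A gap without overlap followed, down to MT-CYB (1026 ± 126). MT-ND3, MT-ND4L, MT-ND2, MT-RNR2, MT-ND1 and MT-ND6 came next, from 995 to 529 CPM per kilobase in mean, and MT-ND5 stood at 486 ± 103, each overlapping its neighbour. MT-RNR1 (279 ± 43.5) and MT-ATP8 (167 ± 20.1) closed the order, both without overlap with the gene above. The level of MT-ATP8 leaves out reads that reached a neighbouring gene. The genes for the catalytic core of cytochrome c oxidase thus had the highest captured levels, and the complex I genes other than MT-ND4 lower ones. MT-ND6, known for an mRNA with little or no tail, lay within the range of the other complex I genes. The part of reads from the opposite strand in its level was not tested. Parts of some genes also occur in the nuclear genome, from which multi-mapping reads were ignored. Of all windows of 150 bases, 15.7% in MT-ND2, 14.5% in MT-CO1, 10.4% in MT-RNR1 and 1.12% in MT-ND1 had an exact nuclear copy in GRCh38, and in the other protein genes and MT-RNR2 none had. The part of such copies in the levels was not tested.

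**Figure D2:**
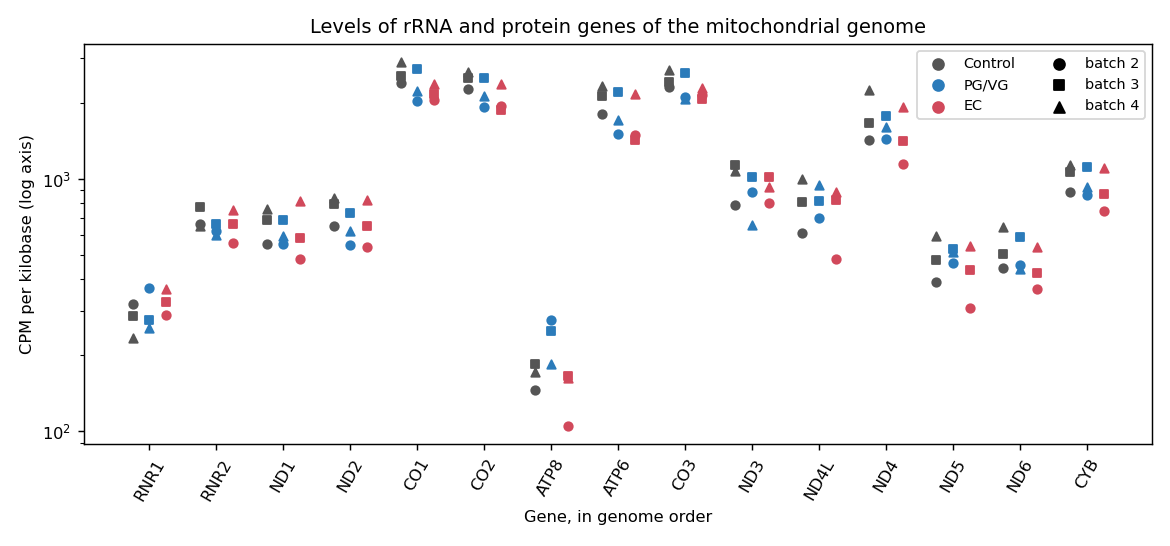
Level of each rRNA and protein gene in CPM per kilobase on a log axis, in genome order. Each symbol is 1 library, with colour for the group and shape for the batch. MT-CO1, MT-CO2, MT-CO3, MT-ATP6 and MT-ND4 form the upper set, and MT-ATP8 is the lowest gene in the control.

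EC vs. control addressed what the whole aerosol of the flavored nicotine liquid did. All 13 protein genes had a negative log2 fold change (LFC), between −0.30 and −0.10, with a median of −0.20 against 0.0078 over all 16030 genes tested. Of all tested genes, 48.5% had a negative LFC. Only 2 members passed the test, MT-CO1 and MT-CO2, both lower. This is 2 of 25 members tested, or 2 of 37 in all, where 13.5% of all tested genes were differentially expressed (DEGs) and 5.38% were lower. The share of DEGs among the tested members was thus below that of DEGs in either direction and above that of lower DEGs. It rests on 2 genes and was not tested. DESeq2 with the batch gave the same 2 DEGs among the members, and ComBat-Seq followed by DESeq2 gave 3, with MT-ND4 added. Over all genes they gave 1726 of 16030 and 3099 of 16100. At an unadjusted p under 0.05 there were 7 members, all protein genes, where 27.4% of all tested genes passed that threshold. What the protein genes shared was a small shift in 1 direction, with 12 of 13 lower in EC in each batch and 10 lower in all 3 batches, against 21.5% of all tested genes. The genes share their transcript, so that these are not independent cases. The median within-batch LFC of the 13 genes was −0.27, −0.24 and −0.16 in batches 2, 3 and 4.

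MT-CO1 (ENSG00000198804, chrM:5904-7445) encodes the subunit of cytochrome c oxidase that holds the site of oxygen reduction. Its levels in batches 2, 3 and 4 were 3694, 3919 and 4461 CPM in the control, 3132, 4205 and 3434 CPM in PG/VG and 3152, 3336 and 3646 CPM in EC. All 3 EC libraries were below all 3 control libraries, and PG/VG overlapped both. Of the 25 members tested, 3 were lower in EC without overlap, MT-CO1, MT-CO3 and the tRNA gene MT-TR, as were 7.42% of all tested genes. MT-TR had only 7 to 59 counts a library and did not pass the test. MT-CO1 fell by 0.25 on the log2 scale in EC vs. control, with a standard error (SE) of 0.080. Its adjusted p was 0.0393 in the quasi-likelihood test of edgeR, adjusted over all tested genes after Benjamini and Hochberg. The LFC within batches was −0.23, −0.23 and −0.29. The LFC was −0.17 in PG/VG vs. control (adjusted p = 0.245) and −0.08 in EC vs. PG/VG (adjusted p = 0.723, both in the same edgeR test).

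MT-CO2 (ENSG00000198712, chrM:7586-8269) encodes the subunit that takes electrons from cytochrome c. It stood at 1545, 1710 and 1811 CPM in the control, 1320, 1706 and 1448 CPM in PG/VG and 1327, 1274 and 1618 CPM in EC. The EC library of batch 4 reached into the control range, and the others lay below it. MT-CO2 fell by 0.26 on the log2 scale in EC vs. control (SE 0.083, adjusted p = 0.0377, edgeR), with −0.22, −0.42 and −0.16 within batches. Its LFC was −0.18 in PG/VG vs. control (adjusted p = 0.231) and −0.09 in EC vs. PG/VG (adjusted p = 0.729) in the edgeR test. Both calls stood close to the threshold. Of 10 alternative analyses, 7 called MT-CO1 and 8 called MT-CO2. DESeq2 with the batch gave an adjusted p of 0.0262 for MT-CO1 and 0.0275 for MT-CO2. ComBat-Seq followed by DESeq2 gave 0.0067 and 0.0060. Both calls were lost with library size as the only scaling, where the adjusted p of edgeR was 0.114 for MT-CO1 and 0.110 for MT-CO2. They were also lost without the batch term, where it was 0.503 and 0.477 at nearly the same LFC (−0.25 and −0.26). In batches 2 and 3 alone MT-CO1 was lost as well, at an LFC of −0.24 with an adjusted p of 0.121 in edgeR, whereas MT-CO2 passed, at −0.33 with 0.0478. Of the 9 fits that left out 1 library, 5 called MT-CO1, with adjusted p between 0.0134 and 0.223. It was lost without control replicate 2 or 4 or EC replicate 3 or 4. For MT-CO2 4 of 9 did, with adjusted p between 0.0107 and 0.316, and it was lost without any of the 3 control replicates or EC replicate 2 or 3.

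MT-CO3, the third subunit of the catalytic core, stood at 1807, 1889 and 2118 CPM in the control and at 1681, 1623 and 1795 CPM in EC. The 2 groups did not overlap, yet the LFC of −0.19 did not pass the test (adjusted p = 0.145, edgeR), nor did −0.13 in PG/VG vs. control (adjusted p = 0.409) or −0.06 in EC vs. PG/VG. All 3 genes of this complex were thus lower in EC in each of the 3 batches, and 2 of them passed the test.

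**Figure D3:**
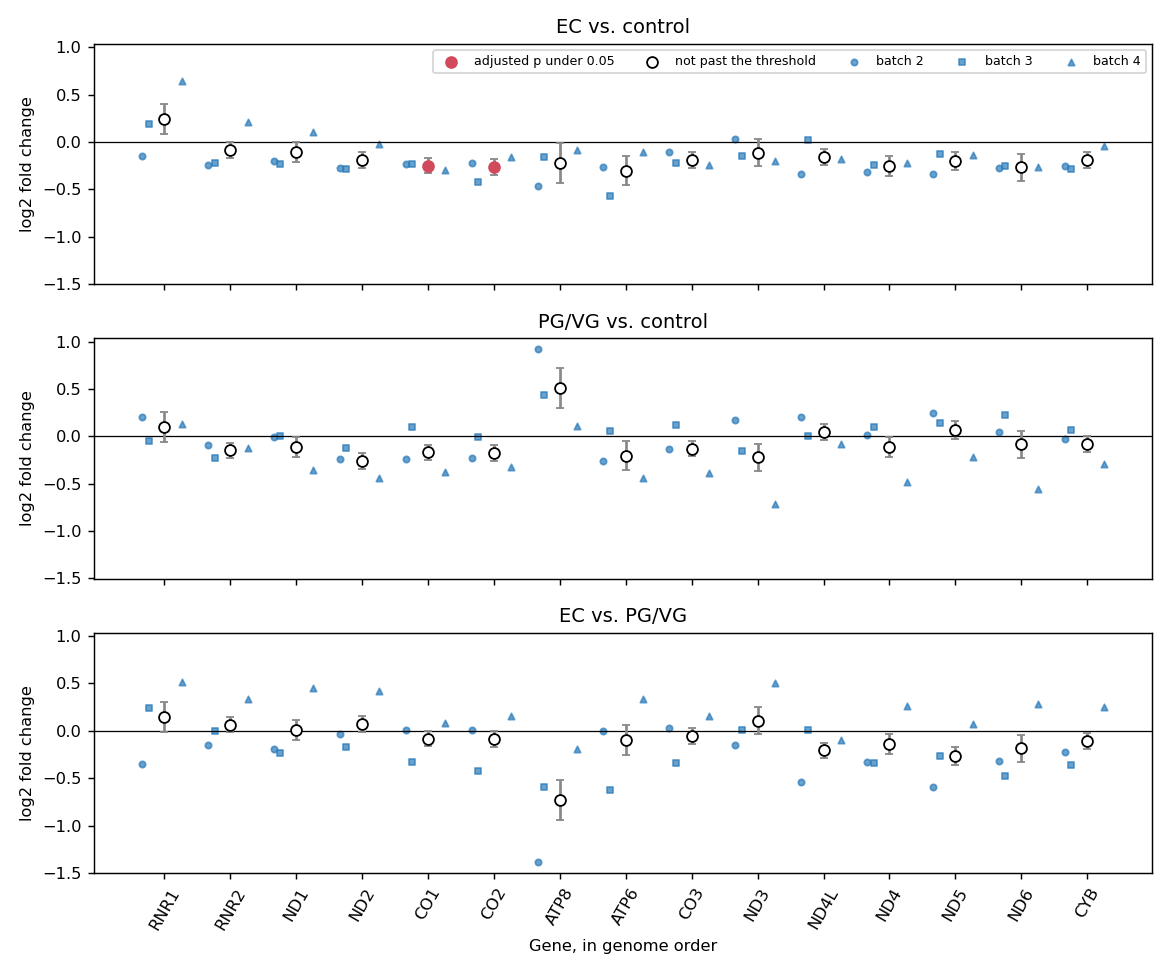
Log2 fold change of the rRNA and protein genes in the 3 comparisons, in genome order. Large circles are the fitted values with their standard errors, filled red where the adjusted p was under 0.05, and small blue symbols are the differences within batches 2, 3 and 4. In EC vs. control all 13 protein genes are below 0. In PG/VG vs. control the batch 4 values lie mostly below the others, and in EC vs. PG/VG mostly above them.

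PG/VG vs. control asked the same of the carrier aerosol. No member passed the edgeR test at an adjusted p under 0.05, where 4.54% of all tested genes did, while 7 members had an unadjusted p under 0.05 against 20.1% of all tested genes. DESeq2 with the batch in the model also gave 0 DEGs among the members, and ComBat-Seq followed by DESeq2, the route of the study, gave 1, MT-ND2. Over all genes they gave 717 of 16030 and 1735 of 16100. The median LFC of the 13 protein genes was −0.11, and it differed between batches, with −0.0089, 0.069 and −0.38 in batches 2, 3 and 4. Of the 13 genes, 7, 4 and 12 were lower in PG/VG in the 3 batches. Without PG/VG replicate 4 the median was 0.037, and without PG/VG replicate 3 it was −0.24, with 4 DEGs, MT-ATP6, MT-CO1, MT-CO2 and MT-ND2, all lower. The fit without PG/VG replicate 3 called 666 of 15947 genes. The direction of the protein genes in PG/VG vs. control therefore rested on single libraries.

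MT-ND2 (ENSG00000198763) encodes a subunit of the membrane arm of complex I, the proton pump that takes electrons from NADH. Its levels in batches 2, 3 and 4 were 675, 829 and 873 CPM in the control, 571, 764 and 644 CPM in PG/VG and 558, 679 and 860 CPM in EC. The ranges overlapped, although PG/VG was below its control in all 3 batches. In PG/VG vs. control the LFC was −0.26 (SE 0.084), with an unadjusted p of 0.00534 and an adjusted p of 0.0776 in edgeR, and −0.24, −0.12 and −0.44 within batches. The adjusted p was under 0.05 in 3 of 10 alternative analyses, including ComBat-Seq followed by DESeq2 with 0.0157, and lay between 0.0145 and 0.801 over the 10. Leaving out 1 library, it was past the threshold without PG/VG replicate 3 (adjusted p = 0.0198) or EC replicate 4 (adjusted p = 0.0307). In EC vs. control the LFC of MT-ND2 was −0.19 (SE 0.084, adjusted p = 0.146, edgeR), with −0.27, −0.29 and −0.02 within batches. EC replicate 4 was nearly level with its control. Without it, the LFC was −0.34 and the adjusted p 0.0162. In EC vs. PG/VG the LFC was 0.07 (SE 0.084, adjusted p = 0.788, edgeR), so that the MT-ND2 levels of PG/VG and EC were not shown to differ.

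EC vs. PG/VG compared the flavored nicotine liquid with a separate carrier liquid at the same dilution and time. The ratio of propylene glycol to glycerin in the flavored liquid was not given in the study. No member passed the edgeR test, where 0.855% of all tested genes did, and 5 members had an unadjusted p under 0.05 against 12.9% of all tested genes. DESeq2 with the batch gave 0 DEGs and ComBat-Seq followed by DESeq2 gave 3, MT-ATP8, MT-ND5 and MT-TN. Over all genes they gave 175 of 16030 and 658 of 16100. The median LFC of the 13 protein genes was −0.098. It was −0.19 in batch 2 and −0.34 in batch 3, with 10 and 11 of 13 genes lower in EC, but 0.25 in batch 4, with 2 of 13 lower. Without batch 4 there were 4 DEGs among the members, MT-ATP8, MT-ND5 and MT-ND6, which were lower in EC, and MT-TN, which was higher. This fit called 80 of 15488 genes and was added after the data had been examined.

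Among the protein genes, MT-ATP8 had both the highest LFC in PG/VG vs. control and the lowest in EC vs. PG/VG. MT-ATP8 and MT-ATP6 encode a pair of membrane subunits through which protons flow back, and are read from 1 shared mRNA. MT-ATP8 stood at 30.0, 38.2 and 35.6 CPM in the control, 56.8, 51.6 and 38.3 CPM in PG/VG and 21.7, 34.3 and 33.6 CPM in EC. The 3 PG/VG libraries were above all control libraries, by as little as 38.3 against 38.2 CPM. Of all tested genes, 7.79% were higher without overlap in PG/VG vs. control. They were also above all EC libraries, where the share over all tested genes was not computed. The LFC of MT-ATP8 was 0.51 in PG/VG vs. control (SE 0.209, adjusted p = 0.245, edgeR), −0.22 in EC vs. control (SE 0.213, adjusted p = 0.575) and −0.73 in EC vs. PG/VG (SE 0.208, adjusted p = 0.210). In batch 2 the last was −1.39, in batch 3 −0.59 and in batch 4 −0.19. None passed the test. The values leaned on batch 2, since the LFC was 0.22 in PG/VG vs. control and −0.45 in EC vs. PG/VG without PG/VG replicate 2, and −0.02 in EC vs. control without EC replicate 2. Without PG/VG replicate 4 the gene passed in PG/VG vs. control (LFC 0.72, adjusted p = 0.0171) and in EC vs. PG/VG (LFC −0.95, adjusted p = 0.0107) by edgeR. With between 473 and 1387 counts a library, MT-ATP8 was the only protein gene with fewer than 1000 counts in any library. MT-ATP6 stood at 1225, 1444 and 1583 CPM in the control, 1019, 1500 and 1168 CPM in PG/VG and 1016, 972 and 1473 CPM in EC, with groups that overlapped. Its LFC was −0.30 in EC vs. control (adjusted p = 0.261, edgeR), −0.20 in PG/VG vs. control and −0.10 in EC vs. PG/VG. The 2 ends of the shared mRNA thus had LFC values of opposite sign in PG/VG vs. control, of which neither passed the test. Reads over both genes were not counted for either.

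The other complex I genes of the heavy strand did not pass the test in any comparison. MT-ND4 had the most counts of them, with 1966, 2286 and 3085 CPM in the control and 1581, 1938 and 2648 CPM in EC, an LFC of −0.26 (adjusted p = 0.120, edgeR) and lower values in EC in all 3 batches. MT-ND5, the distal proton channel of the complex, stood at 704, 860 and 1076 CPM in the control, 836, 950 and 928 CPM in PG/VG and 556, 787 and 976 CPM in EC. Its LFC was −0.20 in EC vs. control (adjusted p = 0.173), 0.07 in PG/VG vs. control and −0.27 in EC vs. PG/VG (adjusted p = 0.205, edgeR). MT-ND4L gave −0.16, 0.05 and −0.21 in the same order of comparisons. MT-ND1 gave −0.10, −0.11 and 0.0090, and MT-ND3 −0.12, −0.22 and 0.11, and both had overlapping groups in each comparison. MT-CYB, the only mitochondrial gene of complex III, stood at 1010, 1213 and 1288 CPM in the control and 847, 993 and 1254 CPM in EC. Its LFC was −0.19 in EC vs. control (adjusted p = 0.157, edgeR), −0.08 in PG/VG vs. control and −0.11 in EC vs. PG/VG.

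In EC vs. control the LFC was positive for MT-RNR1 and negative for MT-RNR2, and neither passed the test. MT-RNR1, for the RNA of the small subunit of the mitochondrial ribosome, stood at 305, 272 and 222 CPM in the control, 350, 262 and 244 CPM in PG/VG and 276, 310 and 348 CPM in EC. In the control it was lowest in batch 4 and in EC highest there. Its LFC was 0.24 in EC vs. control (SE 0.159, adjusted p = 0.386, edgeR), with −0.15, 0.19 and 0.65 within batches, 0.10 in PG/VG vs. control and 0.15 in EC vs. PG/VG. The first was 0.016 in batches 2 and 3 alone, and without EC replicate 2 it was 0.44 and passed the test (adjusted p = 0.00162, edgeR). MT-RNR2, for the RNA of the large subunit, stood at 1029, 1207 and 1014 CPM in the control, 966, 1032 and 930 CPM in PG/VG and 868, 1033 and 1172 CPM in EC. Its LFC was −0.08, −0.15 and 0.07 in the 3 comparisons and did not pass the test. The first was −0.25 in batches 2 and 3 alone (adjusted p = 0.0524, edgeR), near the values of the protein genes, and −0.24 without EC replicate 4, where it passed (adjusted p = 0.0459). Both rRNA genes are cut from 1 precursor, and MT-RNR1 made up between 18.0% and 26.6% of their summed counts.

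MT-ND6 (ENSG00000198695), the complex I subunit read from the light strand, was kept apart from the heavy-strand genes. It stood at 231, 264 and 338 CPM in the control, 238, 309 and 230 CPM in PG/VG and 191, 221 and 281 CPM in EC. EC was below the control of its batch in all 3 batches by nearly the same step, with −0.27, −0.25 and −0.27 on the log2 scale, but groups overlapped. The fitted LFC was −0.27 in EC vs. control (SE 0.142, adjusted p = 0.277), −0.08 in PG/VG vs. control (SE 0.142, adjusted p = 0.808) and −0.18 in EC vs. PG/VG (SE 0.142, adjusted p = 0.664) by edgeR. Against the 12 heavy-strand protein genes it made up 17.0, 17.1 and 19.1 counts per 1000 in the control, 18.9, 19.1 and 16.9 in PG/VG and 16.5, 17.3 and 17.9 in EC. These ratios need no scaling between libraries, and the 3 groups overlapped. The log2 ratio differed by −0.0370 in EC vs. control (SD 0.0547, n = 3 batches, two-sided exact sign-flip permutation p = 0.5). It differed by 0.0481 in PG/VG vs. control (SD 0.191, exact permutation p = 1.0) and by −0.0851 in EC vs. PG/VG (SD 0.149, exact permutation p = 0.5), and 3 batches cannot give a p below 0.25. A difference between MT-ND6 and the heavy-strand protein genes was not detectable with 3 batches. The strand setting of the counting was not given in the sources used here. Reads of heavy-strand RNA over MT-ND6 therefore cannot be told apart from reads of its own RNA, and their part in these values was not tested.

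The 22 tRNA genes together held 11653 counts in the 9 libraries, 85.4% of them on the 8 tRNA genes of the light strand. MT-TC, MT-TP and MT-TN alone took 76.0%, with 364 to 774, 179 to 277 and 157 to 379 counts a library, and MT-TY, the tRNA gene for tyrosine, came next with 66 to 136. The first 3 are those whose sequences are shown above. MT-TL1, for 1 of the leucine tRNAs, led the heavy strand with 45 to 102 counts. MT-TH, MT-TR, MT-TG, MT-TL2 and MT-TE passed the filter with at most 59 counts in a library. The 12 that did not pass it, MT-TF, MT-TV, MT-TI, MT-TQ, MT-TM, MT-TW, MT-TA, MT-TS1, MT-TD, MT-TK, MT-TS2 and MT-TT, had between 0 and 14. Read pairs of this length span a tRNA gene and reach its neighbours, and a read over both was ignored. Of the tRNA genes, 6 had at least 10 free bases on a side, a limit set after the values were seen. They include the 4 with the most counts, but also MT-TF and MT-TK, which had at most 5 counts in a library. Counts on tRNA genes in these libraries are therefore no measure of mature tRNA. The strand setting of the counting was not given in the sources used here, so that reads of precursors on the opposite strand cannot be told apart from reads of these genes.

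No tRNA gene passed the test. MT-TN stood at 10.9, 11.3 and 10.9 CPM in the control, 7.13, 8.59 and 9.65 CPM in PG/VG and 11.7, 16.1 and 8.83 CPM in EC. All PG/VG libraries were below all control libraries, as for 6.37% of all tested genes, and EC spanned both groups. The LFC was −0.38 in PG/VG vs. control (SE 0.161, adjusted p = 0.191, edgeR), 0.13 in EC vs. control (adjusted p = 0.637) and 0.51 in EC vs. PG/VG (SE 0.155, unadjusted p = 0.00382, adjusted p = 0.146). The last was 0.71 and 0.91 in batches 2 and 3 but −0.13 in batch 4. MT-TC stood at 30.4, 27.1 and 30.6 CPM in the control, 14.9, 27.2 and 22.9 CPM in PG/VG and 28.4, 32.9 and 24.2 CPM in EC. Its low point was PG/VG replicate 2. The LFC of −0.47 in PG/VG vs. control had an adjusted p of 0.192, −0.05 in EC vs. control one of 0.897 and 0.42 in EC vs. PG/VG one of 0.367, all by edgeR. Without PG/VG replicate 2 the first was −0.23 and the last 0.18, and without control replicate 3 the first was −0.67 and passed the test (adjusted p = 0.0135). MT-TP lay between 9.75 and 13.3 CPM in all libraries and was lower in PG/VG than in the control in all 3 batches (LFC −0.24, adjusted p = 0.232, edgeR). As for MT-TN, all its PG/VG libraries were below all control libraries.

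**Figure D4:**
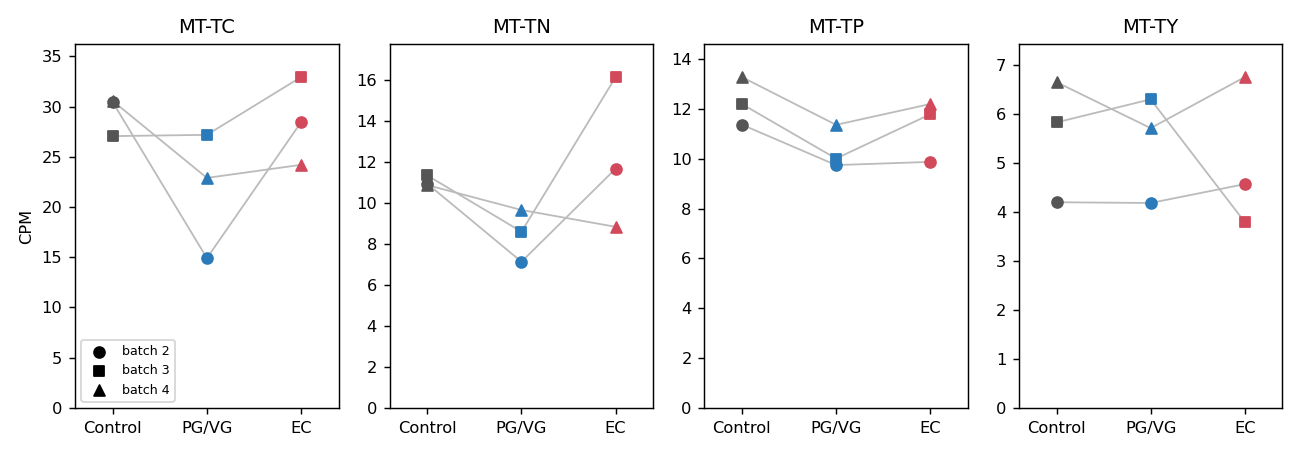
CPM of the 4 tRNA genes with the most counts, all of the light strand. Each symbol is 1 library, with colour for the group and shape for the batch, and grey lines join libraries of a batch. MT-TC is lowest in PG/VG replicate 2 (14.9 CPM), and MT-TN and MT-TP are lower in each PG/VG library than in any control library.

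Nuclear pseudogenes of mitochondrial genes took between 0.00638% and 0.0137% of all gene counts. Of 404 in the table, 4 were tested and none passed in any comparison by edgeR. MTATP6P1, a near copy of a stretch of the mitochondrial genome, had between 1181 and 2838 counts, MTCO1P12 between 154 and 401, MTND2P28 between 29 and 127 and MTND4P12 between 4 and 19. Since near-identical copies can exchange reads, their counts and those of the genes they copy are uncertain to that extent.

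The genes that express the mitochondrial genome lie in the nucleus, and 81 of them were grouped by role. Of the 80 tested, 14 passed the edgeR test in EC vs. control, all lower, where 13.5% of all tested genes were DEGs and 5.38% were lower. The median LFC of the 80 genes was −0.11. In PG/VG vs. control 2 passed, both lower, where 1.9% of all tested genes were lower DEGs, and the median was −0.10. In EC vs. PG/VG none passed, where 0.855% of all tested genes did, and 3 of the 80 had an unadjusted p under 0.05 against 12.9% of all tested genes. DESeq2 with the batch gave 13 DEGs in EC vs. control, 3 in PG/VG vs. control and 0 in EC vs. PG/VG. Over all 16030 genes it gave 1726, 717 and 175.

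Among 18 genes for transcription of mitochondrial DNA and its packing into nucleoids, 3 passed in EC vs. control, and the median LFC was −0.07. TFB2M, the factor that opens the promoter for the polymerase, stood at 21.1, 23.9 and 24.99 CPM in the control and 19.7, 17.4 and 16.2 CPM in EC, without overlap, and fell by 0.40 on the log2 scale (SE 0.106, adjusted p = 0.0146, edgeR). TWNK, the helicase of mitochondrial DNA replication, stood at 42.4, 39.9 and 41.4 CPM in the control and 35.8, 36.0 and 29.2 CPM in EC and fell by 0.29 (adjusted p = 0.0223, edgeR). The polymerase POLRMT had an LFC of −0.05 (adjusted p = 0.714), and TFAM, which bends and packs the DNA, one of −0.13 (adjusted p = 0.227), both by edgeR. These 2 were singled out after their values were seen.

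Of 29 genes for cutting and modifying mitochondrial RNA, 4 passed in EC vs. control. MRM3, a methyltransferase of the large mitochondrial rRNA, fell by 0.38 (SE 0.086, adjusted p = 0.00497), from 32.0, 33.1 and 34.8 CPM in the control to 26.6, 23.2 and 27.2 CPM in EC, without overlap. TRNT1, which adds the CCA end to tRNAs, fell by 0.32 (adjusted p = 0.0149), PUS1, a pseudouridine synthase, by 0.33 (adjusted p = 0.0144) and NSUN2, a cytosine methyltransferase of RNA, by 0.22 (adjusted p = 0.0277), all by edgeR. TRNT1, PUS1 and NSUN2 also serve RNA outside mitochondria. YRDC, which takes part in the threonylcarbamoyl modification of tRNAs inside and outside mitochondria, passed in PG/VG vs. control, with 29.0, 27.6 and 30.0 CPM in the control and 23.4, 22.3 and 21.4 CPM in PG/VG (LFC −0.37, adjusted p = 0.0407, edgeR).

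Of 22 genes for the stability, tailing and decay of mitochondrial mRNA, 4 passed in EC vs. control, and this list had the lowest median LFC, −0.15. LRPPRC, which with SLIRP shields heavy-strand mRNAs from decay, stood at 360, 341 and 338 CPM in the control, 297, 283 and 314 CPM in PG/VG and 285, 279 and 287 CPM in EC. The control libraries were above all exposed ones. LRPPRC fell by 0.29 in EC vs. control (SE 0.066, adjusted p = 0.00513, edgeR), and its LFC in PG/VG vs. control was −0.22 (adjusted p = 0.0589). SLIRP, named as its partner after values were seen, had an LFC of −0.33 in EC vs. control (adjusted p = 0.0738, edgeR). PNPT1, the exonuclease of the mitochondrial degradosome, fell by 0.30 (adjusted p = 0.0144), and REXO2, which removes short RNA remnants, by 0.30 (adjusted p = 0.0144), both by edgeR. REXO2 also passed in PG/VG vs. control, with 67.5, 61.8 and 72.7 CPM in the control and 50.1, 54.8 and 61.2 CPM in PG/VG (LFC −0.28, adjusted p = 0.0424, edgeR). The lower genes of this list thus included a protector and nucleases of mitochondrial RNA.

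Of 12 regulators of mitochondrial biogenesis, 11 were tested and 3 passed in EC vs. control, with a median LFC of −0.0019. PPRC1, a coactivator of nuclear genes for the respiratory chain, fell by 0.33 (SE 0.072, adjusted p = 0.00422, edgeR), from 101, 103 and 96.3 CPM in the control to 76.8, 87.8 and 75.1 CPM in EC, without overlap. Its relative PPARGC1A, singled out after its values were seen, had an LFC of 0.41 in EC vs. control (SE 0.267, adjusted p = 0.349) and −0.33 in PG/VG vs. control (adjusted p = 0.559, edgeR). The remaining 4 DEGs of these lists in EC vs. control, outside the 10 with the smallest adjusted p, were SSBP1, FASTKD3, PPARD and GABPB1, with LFC values of −0.23, −0.35, −0.25 and −0.28. The 14 calls became 8 with library size as the only scaling and 0 without the batch term, and leaving out 1 library they became 8, 5 and 9 without control replicate 2, 3 and 4, 7 without EC replicate 3 and 8 without EC replicate 4. Over all genes, 2157 of 16030 passed in the main fit, 2349 with library size alone and 16 without the batch term. The fits without 1 library gave between 1162 and 2172.

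**Figure D5:**
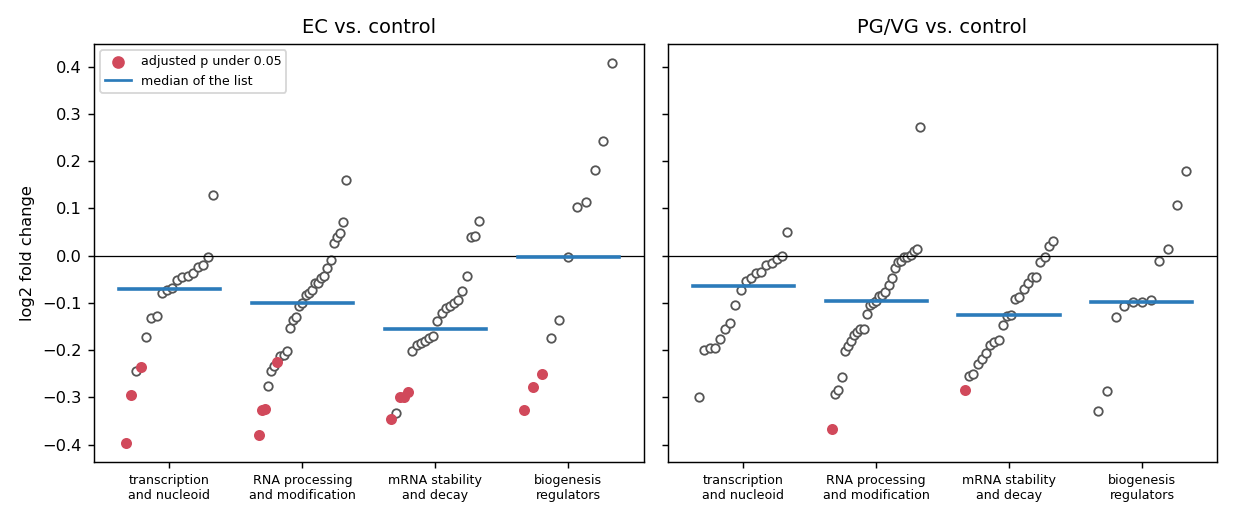
Log2 fold change of the nuclear genes that act on the mitochondrial genome and its RNA, in 4 lists, for EC vs. control (left) and PG/VG vs. control (right). Each circle is 1 gene, sorted within its list, red where the adjusted p was under 0.05, and blue bars are list medians. The 14 red genes on the left and the 2 on the right are all below 0.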

How the data were processed

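RNA of 9 libraries, 3 per group, was selected on poly-T beads and sequenced as paired reads. Per the labels and the methods of the study, the authors used fastp for trimming and STAR for alignment to GRCh38.p12, and counted them on exons of an Ensembl annotation with featureCounts (Subread 2.0.4), leaving out multi-mapping and multi-overlapping reads. The deposited table holds these raw counts, without normalization or batch adjustment. All 9 columns were used, and the strand setting was not given in the sources used here.

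Gene symbols, coordinates and sequences came from a GRCh38 annotation and genome, in which 62666 of the 63187 genes matched. Genes entered the test if 3 or more libraries had 10 or more counts, which kept 16030. They were fitted with edgeR 4.0.16 in R 4.3.3 (TMM, 1 robust quasi-likelihood fit of all 9 libraries with group and batch, Benjamini-Hochberg adjustment over all tested genes, threshold 0.05). CPM used TMM-scaled library sizes, with TMM factors between 0.971 and 1.045. The SE was derived from the LFC and its F statistic (LFC over the root of F). MT-ND6 was set against the summed heavy-strand protein counts, and batch differences were tested by exact sign flips. Alternatives used other scalings and filters, no batch term, 2 groups alone, DESeq2 1.42.0, ComBat-Seq (sva 3.50.0) before DESeq2, and fits without 1 library each. Simulated counts with known changes were used to test the code.

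Same-numbered libraries of different groups had correlated deviations from their group means (0.334 to 0.707 in 9 pairs). In 18 pairs with different numbers the range was −0.539 to 0.426. The contrast came from batch 4. Among libraries numbered 2 and 3, same-numbered pairs ran from 0.334 to 0.399 and pairs with different numbers from 0.280 to 0.426. These values set batch 4 apart but do not show that batches 2 and 3 were paired across groups. The labels give the number as the batch, so batch was a block in the fits. For batches 2 and 3, the within-batch differences and the sign flips rest on these labels. Replicates differed beyond sampling noise. The labels do not say how cultures were separated, so p-values measure the spread between these libraries of 1 cell line. The members and the lists of nuclear genes were chosen with earlier results of these data known. Genes named were all members, of the nuclear lists the DEGs up to the 10 with the smallest adjusted p per comparison, and tested pseudogenes. tRNA genes were named by counts.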

Additional observations from a re-analysis of the deposited data

Results flagged for a closer look

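MT-ATP8 had LFC values of opposite sign against the control in the 2 exposures, in every batch. Against the control of its batch, it was higher in PG/VG in all 3 batches (LFC 0.92, 0.43 and 0.11) and lower in EC in all 3 (LFC −0.47, −0.16 and −0.08). Neither fitted LFC against the control passed the test (adjusted p = 0.245 in PG/VG and 0.575 in EC, edgeR). The gene was flagged for this pattern, and the share of all tested genes that had it was not computed. The test of the difference itself, EC vs. PG/VG, gave an LFC of −0.73 with an adjusted p of 0.210 in edgeR's quasi-likelihood test, so the 2 exposures were not shown to differ in this fit. Over 10 alternative analyses the LFC lay between −0.99 and −0.70, and 4 of them passed the threshold, those with no filter beyond 1 count, with both groups fitted alone, with ComBat-Seq followed by DESeq2 and in batches 2 and 3 alone, with adjusted p between 1.7e-10 and 1.0 over the 10. Without PG/VG replicate 4 it passed as well (adjusted p = 0.0107, edgeR), and leaving out 1 library it lay between −0.95, without PG/VG replicate 4, and −0.45, without PG/VG replicate 2.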

How the results depend on the processing

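Where a value below differs from that of the report, the cause was not tested. In EC vs. control, the 2 DEGs of the mitochondrial genome became 0 with library size as the only scaling, 0 at an adjusted p under 0.01, 6 with no filter beyond 1 count, 6 with both groups fitted alone and 5 in batches 2 and 3 alone, a fit added after the data had been examined. These 5 were MT-CO2, MT-CYB, MT-ND2, MT-ND4 and MT-ND6, without MT-CO1. Over all genes, 2157 of 16030 became 2349 with library size alone, 963 at an adjusted p under 0.01 and 2061 of 35230 without the filter. With both groups alone there were 2102 of 15470, and in batches 2 and 3 alone 1216 of 15488. In PG/VG vs. control, the 0 DEGs became 3 with no such filter, 1 with both groups alone and 1 with ComBat-Seq followed by DESeq2. In EC vs. PG/VG, 0 became 4, 3 and 3 in the same order, and 4 in batches 2 and 3 alone. Over all genes, the main fit gave 727 of 16030 in PG/VG vs. control and 137 in EC vs. PG/VG. The same 3 settings gave 936 of 35230, 1179 of 15327 and 1735 of 16100 in PG/VG vs. control. In EC vs. PG/VG they gave 309 of 35230, 318 of 15818 and 658 of 16100, and batches 2 and 3 alone 80 of 15488. Leaving out 1 library gave 0 to 6 in EC vs. control, 0 to 4 in PG/VG vs. control and 0 to 3 in EC vs. PG/VG. The same fits gave 1162 to 2172, 192 to 1084 and 32 to 208 DEGs over all tested genes. In EC vs. control the count was 0 without control replicate 2 or 4 or EC replicate 3, 1 without control replicate 3, 4 without PG/VG replicate 4 and 6 without EC replicate 4. Without the replicate block no member passed in any comparison, and the nuclear factor DEGs became 0 in both comparisons with the control.

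The 14 nuclear factor DEGs in EC vs. control became 8 with library size as the only scaling, 23 with ComBat-Seq followed by DESeq2, 7 in batches 2 and 3 alone and 3 at an adjusted p under 0.01, and 5 to 15 leaving out 1 library. The 2 in PG/VG vs. control became 4 with RLE scaling, 0 with library size alone, 4 with at least 10 counts in every library, 8 with both groups alone, 12 with ComBat-Seq followed by DESeq2 and 0 at an adjusted p under 0.01, and 0 to 7 leaving out 1 library. The 0 in EC vs. PG/VG became 1 with ComBat-Seq followed by DESeq2. Over all genes, the 2157 DEGs in EC vs. control became 2349 with library size alone, 3099 with ComBat-Seq and 1216 in batches 2 and 3 alone. The 727 in PG/VG vs. control became 738 with RLE scaling, 845 with library size alone and 719 with the stricter filter. They became 1179 with both groups alone, 1735 with ComBat-Seq and 226 at an adjusted p under 0.01.

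The median LFC of the 13 protein genes in EC vs. control was −0.14 with library size alone, −0.28 in batches 2 and 3 alone and between −0.34 and −0.15 leaving out 1 library. It lay between −0.24 and 0.037 in PG/VG vs. control and between −0.25 and 0.045 in EC vs. PG/VG leaving out 1 library. The log2 ratio of MT-ND6, with MT-ND5 and MT-CYB as the reference, differed by −0.074 in PG/VG vs. control and by 0.0066 in EC vs. PG/VG, and leaving out 1 library by −0.0079 to 0.158 in PG/VG vs. control. The difference in mitochondrial share lay between −0.197 and −0.132 percentage points in EC vs. control, between −0.242 and 0.00095 in PG/VG vs. control and between −0.198 and 0.109 in EC vs. PG/VG leaving out 1 library.

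Of single genes, signs turned only for LFC values that did not pass the test. MT-TC in EC vs. control was 0.011 with library size alone and 0.068 in batches 2 and 3 alone. In these batches alone, PG/VG vs. control gave 0.040 for MT-ND4, 0.12 for MT-ND6 and 0.0028 for MT-CYB, and EC vs. PG/VG gave −0.21 for MT-ND1, −0.10 for MT-ND2, −0.072 for MT-ND3, −0.050 for MT-RNR1 and −0.075 for MT-RNR2. Leaving out 1 library, EC vs. control ranged over −0.25 to 0.035 for MT-ND3, −0.24 to 8.5e-05 for MT-RNR2, −0.25 to 0.088 for MT-TC and −0.083 to 0.35 for MT-TN. PG/VG vs. control ranged over −0.18 to 0.046 for MT-CYB, −0.20 to 0.037 for MT-ND1, −0.22 to 0.055 for MT-ND4, −0.082 to 0.11 for MT-ND4L, −0.067 to 0.20 for MT-ND5, −0.24 to 0.12 for MT-ND6 and −0.061 to 0.17 for MT-RNR1. EC vs. PG/VG ranged over −0.27 to 0.10 for MT-ATP6, −0.17 to 0.052 for MT-CO1, −0.18 to 0.045 for MT-CO2, −0.17 to 0.081 for MT-CO3, −0.16 to 0.10 for MT-ND1, −0.064 to 0.17 for MT-ND2, −0.094 to 0.28 for MT-ND3, −0.065 to 0.36 for MT-RNR1 and −0.087 to 0.16 for MT-RNR2. Apart from the fits without 1 library, 493 values of single members kept their sign and their side of the threshold, 32 newly passed it, 5 no longer did and 10 turned sign.

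Every protein gene had at least 473 counts in each library, while 12 tRNA genes stayed under the count filter. With 3 libraries a group and batch 4 apart from the others, the spread between libraries set the precision of the LFC values.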

Other observations

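MT-RNR1 made up 22.9%, 18.4% and 18.0% of the summed counts of both mitochondrial rRNA genes in control libraries of batches 2, 3 and 4, 26.6%, 20.2% and 20.8% in PG/VG and 24.1%, 23.1% and 22.9% in EC. Both exposures lay above the control of their batch in all 3 batches, while the ranges of the groups overlapped for PG/VG. This ratio needs no scaling between libraries. It was looked at after the values of the rRNA genes had been seen, and was not tested.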
